A study of Rattus norvegicus with 3 samples.

Results

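The endogenous opioid system of rat motor cortex was described through 8 genes, the 4 peptide precursors Penk, Pdyn, Pomc and Pnoc and the 4 receptors Oprm1, Oprd1, Oprk1 and Oprl1. They were taken by exact gene name from the deposited expression tables, in which each name stood in 1 of 30957 rows, so all 8 were found. The genes were chosen because electroacupuncture is linked to endogenous opioids. Tissue came from 3 male Sprague-Dawley rats, numbered 12, 24-4 and 33, with 1 library per animal. All of them had undergone cerebral ischemia and reperfusion, in which the brain's blood supply is stopped and then restored, and had been given electroacupuncture, needling with electrical current, at GB20 (Fengchi). The labels state a time of 8 weeks, without its starting point. As every animal belonged to this 1 group, untreated or sham animals were not analysed here, and the values show levels and their spread among treated rats, not an effect of ischemia or stimulation.

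Opioid peptides are cut from larger precursor proteins. Penk encodes proenkephalin, the source of the enkephalins, Pdyn encodes prodynorphin, the source of the dynorphins, Pomc encodes pro-opiomelanocortin, which yields beta-endorphin together with ACTH and melanocortins, and Pnoc encodes the precursor of nociceptin. Enkephalins act mainly at delta (Oprd1) and mu (Oprm1) receptors, beta-endorphin at mu receptors, dynorphins at kappa receptors (Oprk1), and nociceptin at the receptor encoded by Oprl1, which binds classical opioids poorly. The receptors couple to inhibitory G proteins, which lower cyclic AMP, open inwardly rectifying potassium channels and restrain voltage-gated calcium channels. In cortex, enkephalin and dynorphin messenger RNAs are found largely in subsets of interneurons.

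Upstream sequence is shown for Pdyn, Oprd1, Pomc and Oprm1, the 4 of the 8 members that matched the RefSeq promoter table (build GRCr8), so that precursor and receptor genes can be read side by side. Oprm1 had 2 windows, of which the earlier one in the table is given. Each run is the 250 bases before the annotated start, read 5′ to 3′ along the gene's strand. The windows are chr3:137366504-137366753 on the minus strand for Pdyn, chr5:149625000-149625249 on the minus strand for Oprd1, chr6:32659103-32659352 on the plus strand for Pomc, and chr1:45585733-45585982 on the plus strand for Oprm1. Capitals mark matches, on either strand, to 4 motifs, none of which contains another. They are TATAAA, the core of the box of that type, TGACG, the half-site of the cyclic AMP response element, CCAAT, and GGGCGG, the GC box.
Pdyn: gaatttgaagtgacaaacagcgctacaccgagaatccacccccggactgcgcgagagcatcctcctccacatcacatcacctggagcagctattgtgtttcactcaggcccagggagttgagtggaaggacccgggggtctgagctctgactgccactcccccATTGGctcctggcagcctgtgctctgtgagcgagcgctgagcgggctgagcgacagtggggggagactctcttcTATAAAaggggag
Oprd1: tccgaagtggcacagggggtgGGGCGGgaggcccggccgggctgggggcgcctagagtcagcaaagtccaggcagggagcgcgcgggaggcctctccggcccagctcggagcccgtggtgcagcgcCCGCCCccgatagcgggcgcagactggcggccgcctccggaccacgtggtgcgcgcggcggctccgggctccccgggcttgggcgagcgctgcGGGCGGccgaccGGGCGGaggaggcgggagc
Pomc: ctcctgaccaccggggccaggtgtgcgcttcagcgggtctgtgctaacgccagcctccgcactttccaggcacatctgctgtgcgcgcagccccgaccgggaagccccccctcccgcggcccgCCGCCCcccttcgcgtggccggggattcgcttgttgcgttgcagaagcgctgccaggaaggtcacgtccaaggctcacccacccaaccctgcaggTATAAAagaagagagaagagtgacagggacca
Oprm1: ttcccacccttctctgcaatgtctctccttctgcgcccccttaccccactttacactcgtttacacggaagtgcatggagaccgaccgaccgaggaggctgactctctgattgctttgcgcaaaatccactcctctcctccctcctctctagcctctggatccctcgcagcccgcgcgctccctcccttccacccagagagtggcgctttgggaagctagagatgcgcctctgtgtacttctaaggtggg

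The precursor genes Pdyn and Pomc each held 1 TATAAA, 13 to 8 bases before the start in Pdyn and 32 to 27 bases before it in Pomc. Neither receptor window held it, while 12.9% of the 33469 windows of this length in the table did. GGGCGG was found 4 times in Oprd1 and 1 time in Pomc, against 30.5% of all windows with any match. CCAAT was found in Pdyn only, against 34.0% of all windows, and TGACG in none of these 4, against 18.2%. The GC content was 59.2% in Pdyn, 79.6% in Oprd1, 66.4% in Pomc and 58.4% in Oprm1, beside a median of 51.2%. These matches describe letters in the window and say nothing of whether a factor was bound.

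Values are FPKM, that is fragments scaled by gene length in kb and by each 1000000 fragments of the library, so levels of different genes can be set side by side per length. The libraries had estimated depths of 13010000 to 17240000 fragments, so an FPKM of 1 corresponds to 13.01 to 17.2 fragments for each kb of gene. On a gene of 1 kb, 3 fragments would be worth an FPKM of 0.196 in rat 12 and 0.174 in rat 24-4, with 0.231 in rat 33. The authors' transcript lengths are unknown here, so the fragments behind each value are given per kb of gene, without a counting interval. Cortical markers were present, with Slc17a7, the vesicular glutamate transporter gene of cortical excitatory neurons, at 367 to 709 FPKM and Tbr1 at 11.7 to 43.1. Choroid plexus genes differed widely between the libraries, with Ttr, the transthyretin gene, at 3233 FPKM in rat 12 and 124 in rat 24-4, with 12747 in rat 33. Mitochondrial genes took 14.4% to 26.6% of the summed FPKM. Striatal markers were low beside Ppp1r1b (62.2 to 93.7 FPKM), with Drd1 at 3.73 to 4.33, Drd2 at 0.891 to 1.75 and Adora2a at 1.85 to 2.02.

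**Figure D1:**
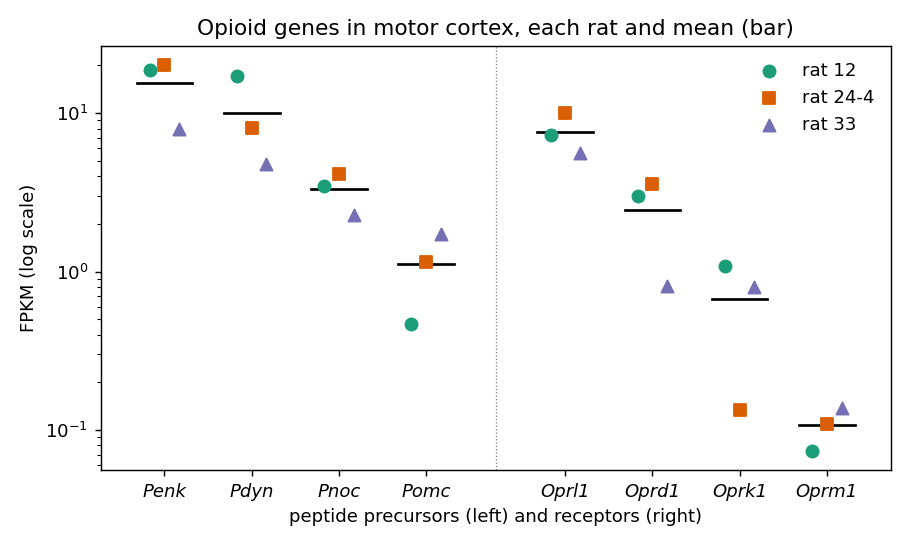
FPKM on a log axis of the 4 opioid peptide precursors (left) and the 4 receptors (right) in each rat, with the mean of 3 rats as a bar. Penk was the highest member in every rat, and Oprm1 the lowest at 0.0738 to 0.138.

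Penk was the most abundant opioid gene in all 3 rats. Its FPKM was 18.7 in rat 12 and 20.1 in rat 24-4, with 7.99 in rat 33, a mean of 15.6 ± 6.62 (SD, n = 3, here and below). Rats 12 and 24-4 lay close together and rat 33 was 2.51-fold below the highest. Penk (ENSRNOG00000008943, Rnor_6.0 chromosome 5, 17056419 to 17061837, minus strand) had a higher mean than 72.7% of the 18983 genes with a value above 0 in at least 1 rat.

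Pdyn followed, with a wider spread. It had 17.3 FPKM in rat 12 and 8.03 in rat 24-4, with 4.75 in rat 33, a mean of 10.02 ± 6.49, which was 6.39 without rat 12. In rat 12 it was nearly level with Penk, and in the other rats it was clearly below it. Pdyn (ENSRNOG00000026036, chromosome 3, 122194329 to 122206671, minus strand) was above 62.8% of genes. The highest value was 3.63-fold the lowest.

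Pnoc and Pomc were the lower precursors. Pnoc had 3.46 FPKM in rat 12 and 4.15 in rat 24-4, with 2.29 in rat 33, a mean of 3.30 ± 0.94. With a coefficient of variation of 28.5%, it was the least variable precursor. Pomc had 0.466 FPKM in rat 12 and 1.14 in rat 24-4, with 1.72 in rat 33, a mean of 1.11 ± 0.63. Its order of rats was the reverse of that of Pdyn. The Pomc values correspond to 7.15, 19.7 and 22.4 fragments per kb in rats 12, 24-4 and 33. Pnoc (ENSRNOG00000014231, chromosome 15, 48805228 to 48833285, minus strand) and Pomc (ENSRNOG00000012686, chromosome 6, 28382962 to 28388967, plus strand) were above 41.4% and 28.5% of genes.

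Oprl1, the nociceptin receptor gene, was the highest of the receptors in each rat. It had 7.33 FPKM in rat 12 and 9.999 in rat 24-4, with 5.58 in rat 33, a mean of 7.64 ± 2.22. The delta receptor gene Oprd1 had 2.99 FPKM in rat 12 and 3.56 in rat 24-4, with 0.813 in rat 33, a mean of 2.45 ± 1.45. For Oprd1 rats 12 and 24-4 were alike and rat 33 stood apart, 4.38-fold below the highest. Oprl1 (ENSRNOG00000016768, chromosome 3, 177225737 to 177231663, plus strand) was above 56.9% of genes and Oprd1 (ENSRNOG00000010531, chromosome 5, 150288126 to 150323063, minus strand) above 37.3%.

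The kappa and mu receptor genes were the lowest receptors by mean level. Oprk1 had 1.08 FPKM in rat 12 and 0.135 in rat 24-4, with 0.803 in rat 33, a mean of 0.674 ± 0.488. These values correspond to 16.6, 2.32 and 10.4 fragments per kb in rats 12, 24-4 and 33, so the 8.05-fold range rests on a low value in 1 rat. Oprm1 had 0.0738 FPKM in rat 12 and 0.109 in rat 24-4, with 0.138 in rat 33, a mean of 0.107 ± 0.0321. In every rat this was under the level that 3 fragments would give a gene of 1 kb, and it corresponds to 1.13, 1.89 and 1.79 fragments per kb. Differences of Oprm1 between the rats were not read, as the unknown transcript length leaves the number of fragments behind them unknown. Oprk1 (ENSRNOG00000007647, chromosome 5, 13744658 to 13760305, minus strand) was above 24.0% of genes and Oprm1 (ENSRNOG00000018191, chromosome 1, 43454803 to 43704948, plus strand) above 10.1%.

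Oprm1 was the only member whose locus overlapped other rows of the tables. Of 4 overlapping rows, Ipcef1 lies on the opposite strand inside the Oprm1 locus and had 25.2 FPKM in rat 12 and 15.8 in rat 24-4, with 6.99 in rat 33. An unnamed row on the opposite strand, Rn60_1_0436.1, had 23.9, 15.8 and 10.5 in the same rats. Strand use in counting is unknown here, which makes the Oprm1 value uncertain.

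**Figure D2:**
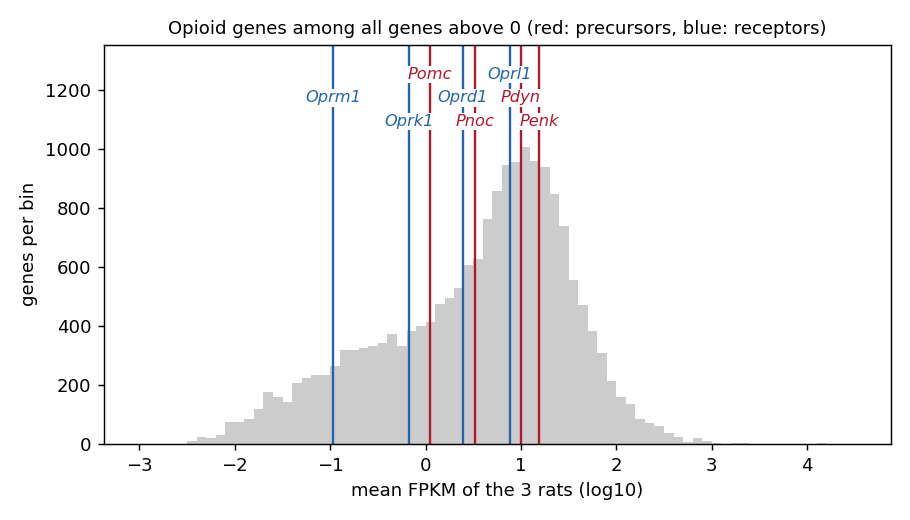
Histogram of the mean FPKM of the 3 rats (log10) for the 18983 genes above 0, with the opioid precursors in red and the receptors in blue. Penk lies above 72.7% of these genes and Oprm1 above 10.1%.

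Ordered by mean level, the members ran Penk, Pdyn, Oprl1, Pnoc, Oprd1, Pomc, Oprk1 and Oprm1. Differences between neighbours in this order were computed within each rat on the log2(FPKM + 1) scale, on which differences between genes of low FPKM come out too small. Of 7 neighbouring pairs, 4 had the same sign in all 3 rats. Oprl1 minus Pnoc was the most even, with 0.90, 1.10 and 1.001 in rats 12, 24-4 and 33. Penk minus Pdyn was 0.11, 1.22 and 0.64, Pnoc minus Oprd1 was 0.16, 0.17 and 0.86, and Oprk1 minus Oprm1 was 0.96, 0.03 and 0.66 in the same order of rats. The mean of Pnoc minus Oprd1 did not exceed its SD (0.40 ± 0.40).

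The remaining 3 neighbouring pairs did not keep 1 sign in all rats. As the order was set by the means of these same rats, positive differences between neighbours were favoured in advance. Pdyn minus Oprl1 was 1.13 in rat 12 but -0.28 in rat 24-4 and -0.19 in rat 33, so Oprl1 exceeded Pdyn in rats 24-4 and 33. Oprd1 minus Pomc was 1.44, 1.09 and -0.58, and Pomc minus Oprk1 was -0.51, 0.92 and 0.59, in rats 12, 24-4 and 33. An exact sign-flip permutation test, two-sided, cannot give a p below 0.25 with 3 rats. It gave 0.25 for the 4 pairs of 1 sign, 0.5 for Oprd1 minus Pomc and Pomc minus Oprk1, and 1 for Pdyn minus Oprl1. After Benjamini-Hochberg adjustment over 11 comparisons, these and the precursor-receptor pairs below counted once each, the smallest exact p was 0.344.

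Each precursor was then set against its main receptor. The enkephalin precursor exceeded the delta receptor by nearly the same margin in each rat: Penk minus Oprd1 was 2.31, 2.21 and 2.31 in rats 12, 24-4 and 33, a mean of 2.28 ± 0.06. In FPKM, Penk was 6.27, 5.64 and 9.82 times Oprd1 in these rats, so the ratio was less even than the difference on the log2(FPKM + 1) scale. Penk minus Oprm1 was 4.2, 4.25 and 2.98, a mean of 3.81 ± 0.72.

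Dynorphin and its receptor were less evenly matched across animals. Pdyn minus Oprk1 was 3.13, 2.99 and 1.67 in rats 12, 24-4 and 33, a mean of 2.60 ± 0.80. In FPKM, Pdyn was 15.9, 59.6 and 5.92 times Oprk1 in these rats, so rats 12 and 24-4, close on the log2(FPKM + 1) scale, were far apart as ratios, and the highest ratio rests on the low Oprk1 value of rat 24-4. Pomc minus Oprm1 was 0.45, 0.95 and 1.26, a mean of 0.89 ± 0.41, with both genes low in each rat.

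The nociceptin pair ran the other way. Pnoc minus Oprl1 was -0.90, -1.10 and -1.001 in rats 12, 24-4 and 33, and in FPKM the receptor gene was 2.12, 2.41 and 2.44 times its precursor. All 5 differences kept 1 sign in the 3 rats, and for each the exact p by sign flips was 0.25, or 0.344 once adjusted over the 11 comparisons. The nociceptin pair is the same comparison as that of the neighbours Oprl1 and Pnoc.

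**Figure D3:**
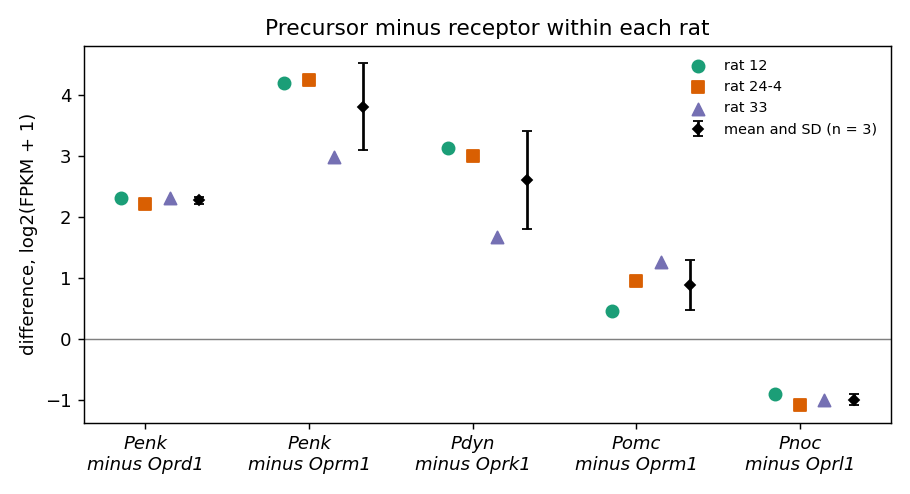
Precursor minus receptor on the log2(FPKM + 1) scale within each rat, with the mean and SD of 3 rats beside the points. Penk minus Oprd1 (2.28 ± 0.06) and Pnoc minus Oprl1 (-0.999 ± 0.098) were the most even pairs, and Pnoc minus Oprl1 was the only pair below 0.

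Summed over the 4 precursors, FPKM was 39.9 in rat 12 and 33.4 in rat 24-4, with 16.7 in rat 33. The 4 receptors summed to 11.5, 13.8 and 7.34 in these rats, so both sums were lowest in rat 33. Precursors exceeded receptors 3.48-fold, 2.42-fold and 2.28-fold in rats 12, 24-4 and 33. Penk made up 51.6 ± 7.41% of the precursor sum and Pdyn 31.9 ± 10.1%. The share of Pdyn was 43.3% in rat 12, against 24.1% in rat 24-4 and 28.4% in rat 33. Pomc made up 1.17%, 3.42% and 10.3% in rats 12, 24-4 and 33.

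Receptor sums were dominated by Oprl1 in every rat, at 63.9%, 72.5% and 76.1% in rats 12, 24-4 and 33. Among the classical receptors, Oprd1 held 26.0%, 25.8% and 11.1% of the sum, Oprk1 9.45%, 0.976% and 10.9%, and Oprm1 0.643%, 0.793% and 1.88%. The delta receptor gene was thus the main classical receptor gene in rats 12 and 24-4. In rat 33 Oprd1 and Oprk1 were level.

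**Figure D4:**
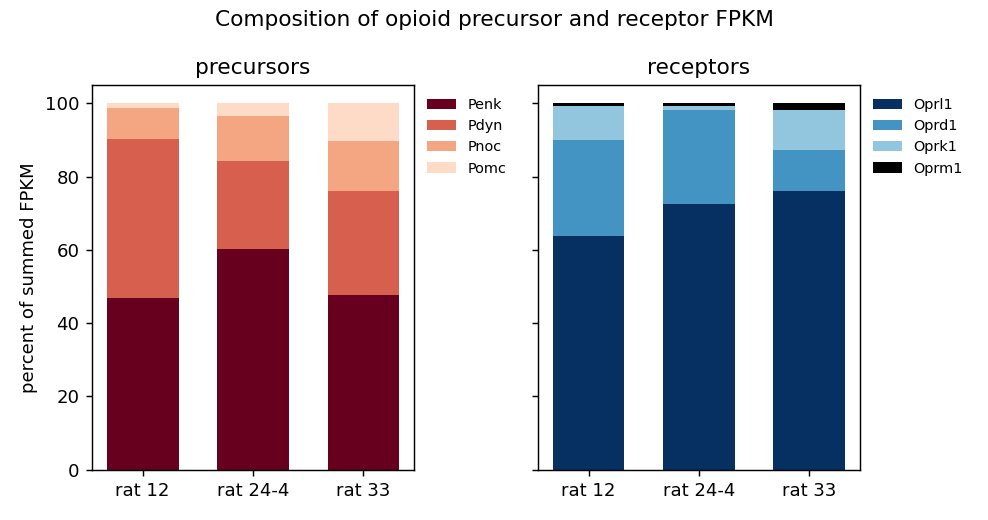
Share of each gene in the summed FPKM of the 4 precursors (left) and the 4 receptors (right), as stacked bars for each rat. Oprl1 made up 63.9% to 76.1% of receptor FPKM, and the share of Pdyn among precursors was highest in rat 12.

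The spread of each member between the rats was compared with that of genes of its level. This limma test ran over the 13754 genes whose mean FPKM was 1 or more, which 6 members reached; Oprk1 and Oprm1 did not. At an adjusted p under 0.05, 0 of the 6 were called variable, beside 0.102% of all genes tested (14 genes, a count that ranged from 0 to 101 over the alternatives run). At an unadjusted limma p under 0.05 there was 1, Pdyn, beside 5.96% of all genes.

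Pdyn had an SD of 0.84 on the log2(FPKM + 1) scale against 0.36 for genes of its level (limma adjusted p = 0.766). Penk had an SD of 0.68 against 0.35 (limma adjusted p = 0.884) and Oprd1 of 0.72 against 0.40 (limma adjusted p = 0.925). Pnoc, Pomc and Oprl1 had SDs of 0.33, 0.45 and 0.37, close to those of genes of their level (0.40, 0.41 and 0.37), and a limma adjusted p of 0.993 each. Over all alternatives run, the limma adjusted p of Pdyn ranged from 0.468 to 0.997. Of the tested members, 4 had a highest FPKM at least 2-fold the lowest (Penk, Pdyn, Pomc and Oprd1), where 30.0% of all genes tested did.

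Rat 33 was the lowest animal for 5 of the 8 members, namely Penk, Pdyn, Pnoc, Oprd1 and Oprl1, and 28.9% of all genes tested were lowest there. Deviations of rat 33 from the mean of the rats, on the log2(FPKM + 1) scale, were -0.79 for Penk, -0.77 for Pdyn, -0.36 for Pnoc, -0.82 for Oprd1 and -0.36 for Oprl1. The median over the 6 tested members was 0.20, 0.33 and -0.57 in rats 12, 24-4 and 33, beside -0.06, 0.01 and 0.07 for all genes tested. Pomc was lowest in rat 12 and Oprk1 in rat 24-4, and no order of rats was read for Oprm1. The same 5 members were lowest in rat 33 with the mitochondrial genome left out or with rats scaled to the same median, which put 29.3% and 36.6% of all genes lowest there.

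Rat 24-4 was the highest animal for 4 members, Penk, Pnoc, Oprd1 and Oprl1, where 34.2% of all genes tested were highest. With the mitochondrial genome left out, Penk was higher in rat 12 than in rat 24-4.

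**Figure D5:**
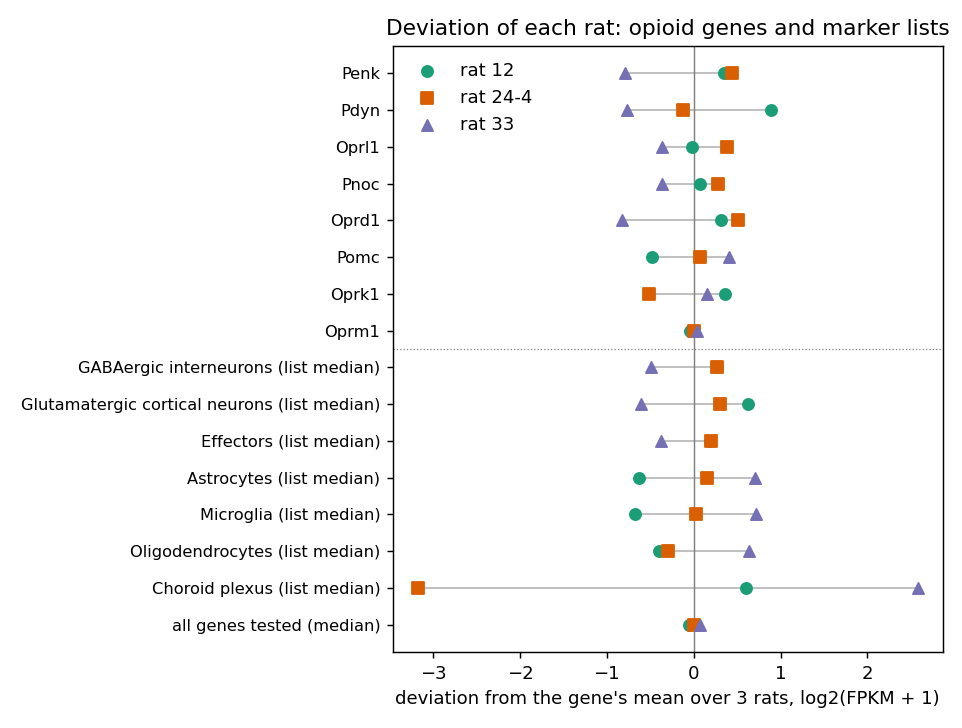
Deviation of each rat from the gene's mean over 3 rats, on the log2(FPKM + 1) scale, for the 8 opioid genes (top) and as medians of marker lists and of all genes tested (bottom). Rats 12 and 24-4 coincide for the GABAergic interneuron and effector lists. Rat 33 lies lowest for 5 opioid genes and for the GABAergic and glutamatergic lists, and highest for the astrocyte, microglia, oligodendrocyte and choroid plexus lists.

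Most GABAergic and glutamatergic markers were also lowest in rat 33, where 28.9% of all genes tested were lowest. Limma called none of these markers variable after adjustment. Before adjustment, 3 of the 10 tested GABAergic and 5 of the 8 glutamatergic markers had a limma p under 0.05, beside 5.96% of all genes. Of 11 GABAergic interneuron markers, 10 were tested and 9 of these were lowest in rat 33, with Vip at 21.6 FPKM in rat 12 and 14.2 in rat 24-4, with 5.38 in rat 33. The list summed to 642, 865 and 370 FPKM in rats 12, 24-4 and 33, and its median deviation was 0.27, 0.27 and -0.49. Npy was listed at 0 in all rats, which need not mean absence, as some genes that every cell uses were also listed at 0. Of 8 glutamatergic markers, 6 were lowest in rat 33, and the list summed to 576, 848 and 450 FPKM. Most of that sum was Slc17a7, at 421, 709 and 367 FPKM in rats 12, 24-4 and 33. By gene, 5 of the 8 were highest in rat 12 and 3 in rat 24-4, and the list's median deviation was 0.63, 0.30 and -0.61. In bulk tissue, fewer cells of a type and less RNA per cell cannot be told apart.

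Most glial markers and all choroid plexus markers ran the other way. All 5 microglial markers, all 4 oligodendrocyte markers, 3 of 5 astrocyte markers and all 6 choroid plexus markers were highest in rat 33. Of all 13754 genes tested, 5772 were highest there, more than in either other rat. The astrocyte markers Aqp4 and Slc1a2 were highest in rat 24-4. Microglial markers summed to 105, 183 and 308 FPKM in rats 12, 24-4 and 33, astrocyte markers to 467, 1187 and 1896, oligodendrocyte markers to 4774, 5981 and 10842, and choroid plexus markers to 3324, 129 and 13115. Most of the astrocyte sum was Gfap, at 271, 937 and 1585.5 FPKM in the same rats. No marker of these 4 lists was at 0, and limma called 4 of the 6 choroid plexus markers variable and none of the others. These calls were lost under the 5 alternatives in which 0 genes were called. Before adjustment, a limma p under 0.05 was reached by 6 choroid plexus, 3 astrocyte, 1 microglial and 0 oligodendrocyte markers, beside 5.96% of all genes. The part of these differences in the opioid levels was not tested.

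Markers of regions rich in opioid precursors were compared in the same way. The 8 striatal markers summed to 137, 123 and 90.5 FPKM in rats 12, 24-4 and 33. Of these markers, 5 were lowest in rat 33, as Penk and Pdyn were, beside 28.9% of all genes tested. Of 4 dentate gyrus markers, Tdo2 was listed at 0 and the list summed to 4.18, 11.2 and 20.96 FPKM, an order opposite to that of Pdyn. That order came from C1ql2, at 0.859, 8.79 and 12.7 FPKM in rats 12, 24-4 and 33. Prox1 (2.84, 2.35 and 6.86) and Dsp (0.476, 0.0848 and 1.38) were lowest in rat 24-4 instead. Of 9 hypothalamic and pituitary markers, Oxt, Gh1, Prl and Tshb were listed at 0 in all rats. That list summed to 2.74, 7.70 and 5.63 FPKM in rats 12, 24-4 and 33, mostly from Hcrt at 1.98, 6.02 and 3.72, while Pomc had 0.466, 1.14 and 1.72. Trh (0.140, 0.542 and 1.27) and Pmch (0, 0.157 and 0.277) had the order of rats of Pomc. That order is uncertain, as some values lay under the level that 3 fragments would give a gene of 1 kb. These were Trh in rat 12 and Pmch in rats 12 and 24-4. Avp was highest in rat 24-4, as Hcrt was, and Agrp in rat 12. The 6 blood leukocyte markers, none at 0 in all rats, summed to 3.69, 7.90 and 14.7 FPKM. Most of the sum in rat 24-4 was Cd3e, at 0.116, 4.81 and 0.477 FPKM in rats 12, 24-4 and 33. Of the 3 that were tested, Ptprc and Itgal were lowest in rat 24-4 and Cd3e in rat 12. The part of these cells or regions in the opioid values was not tested.

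Genes of the opioid pathway were taken from 6 lists with 72 entries, of which 71 were found, 2 were listed at 0 in all rats and 67 were tested. Vgf was not matched. With limma 0 of the 67 were called after adjustment, and 6 passed 0.05 before it, or 8.96%, beside the 5.96% of all genes. Of the 67, 32 were lowest in rat 33 (47.8%, beside 28.9% of all genes tested). In rat 24-4, 28 were highest (41.8%, beside 34.2% of all genes tested).

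The machinery that makes and stores peptides was abundant. Its list had a median level of 6.40 ± 0.11 on the log2(FPKM + 1) scale, beside 3.48 ± 0.07 for all genes tested and 1.98 ± 0.36 for the 8 opioid genes. These sets are unlike, as the genes tested all had a mean FPKM of 1 or more. The opioid median includes Oprk1 and Oprm1, which did not, and the list medians here and below include every gene found. Cpe, the carboxypeptidase that trims peptide ends, was highest at 684 ± 102 FPKM. Pcsk2, a convertase that cuts opioid precursors, had 101, 79.2 and 50.6 FPKM in rats 12, 24-4 and 33, while the related convertase Pcsk1 had 1.45, 1.22 and 1.13. Pcsk1n, which encodes an inhibitor of that convertase, was listed at 0. Of 11 tested genes, 5 were lowest in rat 33, beside 28.9% of all genes tested.

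Genes of peptide breakdown had a median level of 3.26 ± 0.28 and included the pathway gene with the lowest limma p. Ace, the angiotensin-converting enzyme, which also cleaves enkephalins, had 12.8 FPKM in rat 12 and 4.04 in rat 24-4, with 40.3 in rat 33 (limma adjusted p = 0.213). Its order of rats was that of the choroid plexus markers. Npepps, a cytosolic aminopeptidase, was highest at 49.0 ± 5.85 FPKM. Mme, which encodes neprilysin, the enkephalin-degrading endopeptidase, was lowest with 1.88, 0.574 and 0.448 in rats 12, 24-4 and 33.

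G protein genes had a median level of 6.0 ± 0.26. The beta subunit gene Gnb1 was highest at 222 ± 39.3 FPKM and Gnb4 lowest at 11.97 ± 4.42, and 0 of 12 had an unadjusted limma p under 0.05. Gnao1, the alpha subunit typical of brain, had 158 ± 21.6. In the list of receptor regulation (median level 3.87 ± 0.07), Rgs4, which speeds the shut-off of inhibitory G proteins, was highest at 191, 131 and 36.0 FPKM in rats 12, 24-4 and 33 (limma adjusted p = 0.485). Rgs9 was lowest at 4.10 ± 1.45. The arrestin gene Arrb1 had 22.4 ± 6.89 and Arrb2 25.04 ± 4.01.

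Effector genes had a median level of 4.21 ± 0.41, and 11 of 14 were lowest in rat 33, beside 28.9% of all genes tested. The potassium channel subunit genes Kcnj3 (54.9, 21.03 and 13.5 FPKM in rats 12, 24-4 and 33) and Kcnj9 (50.6, 32.2 and 9.87) and the adenylyl cyclase gene Adcy1 (66.7, 67.01 and 13.9) passed 0.05 only before adjustment. Their limma adjusted p-values were 0.570 for Kcnj3, 0.464 for Kcnj9 and 0.416 for Adcy1. Kcnj5, another potassium channel subunit gene, was lowest at 1.18 ± 0.50 FPKM.

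Other genes that bind or oppose opioids had a median level of 3.23 ± 0.19. Cck, a peptide that counters opioid action and is also counted among the interneuron markers, was highest at 155, 327 and 92.2 FPKM in rats 12, 24-4 and 33 (limma adjusted p = 0.808). Ogfr, the receptor for Met-enkephalin as a growth factor, had 15.8 ± 3.79, and Ackr3, a scavenger of opioid peptides, had 7.33 ± 1.69. Npffr2, a receptor of the anti-opioid peptide NPFF, was listed at 0, and the related receptor gene Npffr1 was the lowest above 0 at 0.219 ± 0.0609. Npff itself had 1.12 ± 0.29.

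The genes nearest to Penk and Oprl1 in profile were found by the Euclidean distance between deviations in the 3 rats, over 13753 other tested genes. Nearest to Penk were Rab11fip4 (64.1, 68.2 and 28.7 FPKM in rats 12, 24-4 and 33, distance 0.00550), Stard10 (0.00893) and Mef2d (0.0143). Nearest to Oprl1 were Ier5l (0.00879), Otub1 (0.00892) and Rusc2 (0.00963). Within a distance of 0.1 lay 47 genes for Penk (0.342%) and 194 for Oprl1 (1.41%).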

How the data were processed

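The deposited values are FPKM, 1 table per rat. Per the labels' design text, FPKM was obtained by the authors with a Perl script from normalized fragment counts of each gene. The submitters' processing notes name HISAT2 2.0.4, StringTie 1.3.0 and Rnor_6.0. How counts were normalized, and whether strand was used, is not given in the sources used here. Because FPKM is a share of its library, an abundant transcript lowers all others. Some genes that every cell uses, such as Rps6, are listed at 0. A 0 for Npy, Pcsk1n, Npffr2 or another gene therefore need not mean absence. Loci up to 400 bp gave the depth estimates: 92.4% to 92.9% of 656 to 690 low values per rat were whole fragments within 0.02. This covers counting error only.

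Levels were analysed as log2(FPKM + 1). Variability was tested with limma 3.58.1 (R 4.3.3) on genes whose mean FPKM was 1 or more, as an intercept per gene, with the residual variance over a trended, robust prior variance compared one-sided with the F distribution. The prior's degrees of freedom were those of the bulk of genes, 7.96. This was set after the step, tested on simulated data, found no seeded change with limma's smaller value per gene. Benjamini-Hochberg adjustment covered all 13754 genes. Other steps used Python 3.11.15, pandas 2.3.3 and scipy 1.17.1. The 8 members, the highest and lowest gene of each pathway list and the 3 genes nearest in profile to the highest precursor and receptor were named by rule, and further list genes after their values were seen. The highest gene of the effector list is not reported here. Members, lists and tests were chosen with earlier results of these data known. The rats are taken as biological replicates, as each has its own number. Alternatives changed the pseudocount, filter, prior and scaling, or left out 1 rat.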

Additional observations from a re-analysis of the deposited data

How the results depend on the processing

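None of the 6 tested opioid genes was called variable between rats with limma under any of the 9 alternatives run. At most 2 had an unadjusted limma p under 0.05. Under the alternatives that called no gene at all, given below, no opioid gene could be called. As a call needs a wide spread with so few rats, the lack of calls does not show that the opioid genes were even. The count over all genes changed between the alternatives. It was 14 as reported, 23 with a pseudocount of 0.1 and 54 with rats scaled to the same median. It was 0 with the mitochondrial genome left out, with a mean FPKM of at least 0.1, with no filter and with a prior that is not robust, where 624, 903, 864 and 733 genes passed 0.05 before adjustment with limma. Leaving out 1 rat gave 0 to 101 (0 without rat 24-4, where 631 passed before adjustment, 66 without rat 33, 101 without rat 12). The prior was estimated anew each time, and the cause was not tested. Without rat 12 the pathway lists held 1 called gene each in peptide breakdown (Ace, limma adjusted p = 0.00104) and in effectors (Adcy1, 0.0499), and none without either other rat, so these counts ranged from 0 to 1. The mean FPKM of all 8 members moved by less than 1 SD with the mitochondrial genome left out and with rats scaled to the same median. Leaving out 1 of 3 rats cannot move a mean by 1 SD, so it is no check of stability. It moved Pdyn to 6.39 without rat 12, against 10.02 with all rats. A pseudocount does not enter a mean FPKM. Of the 11 distinct differences between members, Pdyn minus Oprl1 reversed without rat 12 (-0.24, against 0.47 without rat 24-4), and the other 10 kept their sign. Oprk1 and Oprm1 could be tested only under a lower filter, with limma adjusted p-values of 0.985 to 0.999. No paired analysis was possible because there is 1 group. Few fragments per kb limit Oprm1 in every rat and Oprk1 in rat 24-4, with transcript lengths unknown.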
